A study of Mus musculus with 6 samples.

Results

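The Kruppel-like factors (KLFs) are transcription factors that bind GC-rich and CACCC sequences in promoters and enhancers through zinc fingers at the end of the protein, while the rest of each protein recruits activators or repressors. Because the fingers are very similar, family members can occupy the same sites, and the levels of the other members are of interest where 1 is deleted. KLF4, known from skin and gut differentiation and as a reprogramming factor, was the targeted protein here, and the series asks which genes it regulates in the glucagon-producing alpha cells of the pancreatic islet. Described below are 10 family genes, Klf2, Klf3, Klf4, Klf5, Klf6, Klf7, Klf10, Klf11, Klf12 and Klf13, taken by symbol from the 55536 genes of the count table.

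Polyadenylated RNA of whole islets was sequenced from C57B1/6J mice (the strain as spelled in the design text). The 3 control libraries came from Klf4+/+;Gcg-iCre mice and the 3 knockout libraries, labelled Klf4-alphaKO, from Klf4fl/fl;Gcg-iCre mice. Both groups thus carried the Cre driver, named for the glucagon gene of alpha cells, while the RNA came from all cells of the islet. Recombination of Klf4 in alpha or other cells was not measured here. Age, sex and the number of mice behind a library are not in the labels, so p-values measure the spread between these libraries. Totals ran from 101277200 to 110243918 counts per library. Xist, the RNA of the inactive X chromosome, stood at 77938 to 108105 normalized counts (counts divided by DESeq2 size factors) in the control and at 12 to 30 in the knockout libraries, and the Y-linked gene Ddx3y at 0 in every control and at 5599 to 6265 in every knockout library. Sex-linked transcripts and genotype divided the libraries identically, so the 2 cannot be told apart in any difference given below.

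No Klf gene of the 10 had an adjusted p under 0.05, neither in DESeq2, the test named in the series' design text, nor in edgeR. Across all genes DESeq2 called 2.19% of 17797 tested and edgeR 0.115% of 25210. Klf10 was lower and Klf13 higher in every knockout library than in any control library, with fitted changes of -21.1% and 19%. For Klf10 the nearest libraries were almost equal, at 3923 and 3919 normalized counts. Klf3 was also higher without overlap, with a fitted change of 3.25%. Groups did not overlap for 17.3% of all genes tested. Scaled to library totals, Klf10 and Klf3 overlapped between the groups. Klf10 and Klf13 were the 2 of 10 members with an unadjusted p under 0.05, in DESeq2 and in edgeR alike, beside 11.5% and 9.48% of all genes tested. Klf4 itself overlapped between the groups. Klf15, a family gene outside the 10, passed in DESeq2 and not in edgeR.

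The targeted gene is given first. Klf4 (ENSMUSG00000003032, GRCm38 chromosome 4, 55527143 to 55532466, minus strand, 3 annotated transcripts) had 3148, 2879 and 2015 normalized counts in the control libraries, in replicate order, while the knockout libraries had 2340, 2540 and 2277. Control replicate 3 lay below every knockout library and the other controls lay above them all. The knockout libraries were close together, with a coefficient of variation of 5.75% against 22.1% in the controls, where counting alone would give about 2.8%. The log2 fold change was -0.17 ± 0.15 (SE, DESeq2 adjusted p = 0.774), with a 95% interval from -27.1% to 8.64%. Both ends of the control range moved this value. Without control replicate 1, the highest, it was -0.04 with a DESeq2 adjusted p of 0.964, and without control replicate 3, the lowest, -0.34 with an adjusted p of 0.00568, in fits that called 2.49% and 6.28% of all genes. A gene-level count sums reads over all exons, and the labels do not say which exons are floxed, so a transcript that had lost part of its coding sequence would still be counted. In whole islets, fewer cells of a type and less RNA per cell cannot be told apart. Alpha-cell markers moved with the genotype: 5 of 10 fell in DESeq2 and 0 in edgeR, and their summed level was 4131830 to 5938666 normalized counts in control and 3062892 to 3761953 in knockout libraries. Their part in the Klf4 value was not tested.

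**Figure D1:**
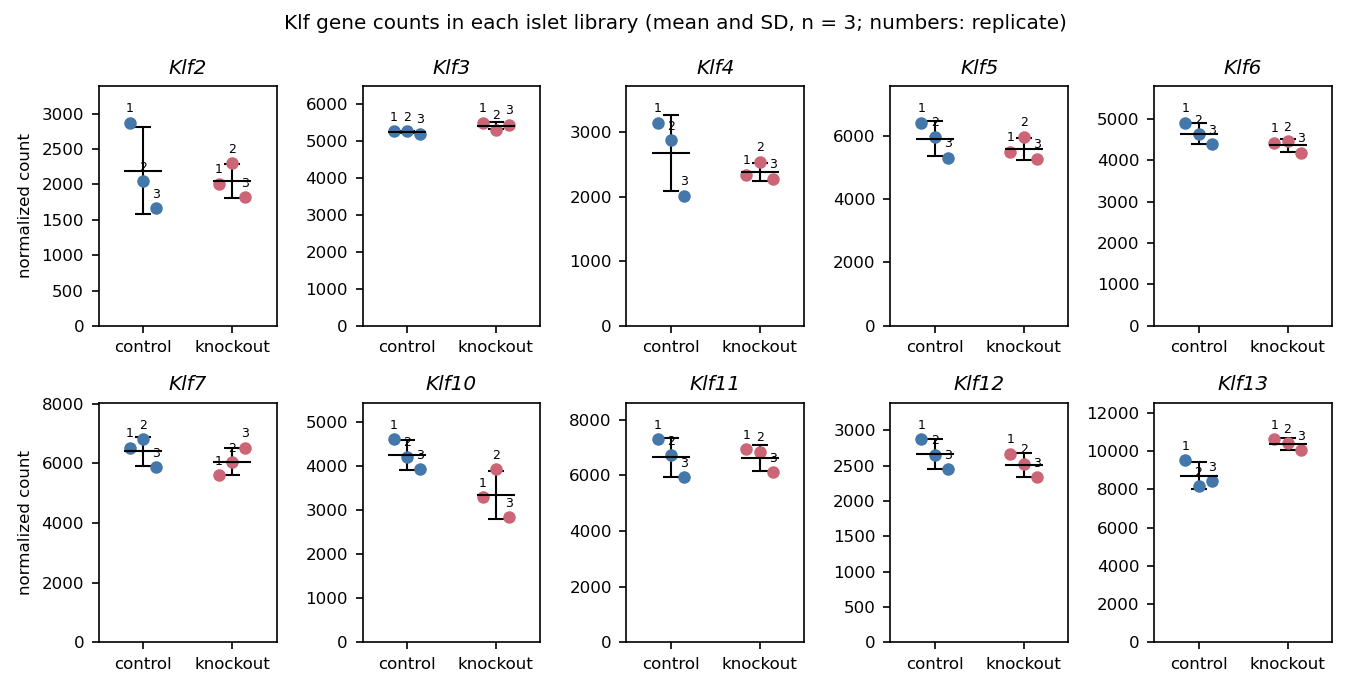
Normalized count of each Klf gene (vertical axis, from 0) in the control and knockout libraries; points are libraries with their replicate number, and bars give the mean and SD of 3. Klf13 is higher in all knockout libraries than in any control, Klf10 lower, and Klf4 spans 2015 to 3148 in the controls.

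Promoter sequence was examined for the GC boxes that KLF and SP proteins bind. RefSeq windows of the 250 bases before the start (GRCm38.p6) were found for 8 of the 10 genes, not for Klf5 and Klf10. The windows of Klf12 (chr14:100149797-100150046) and Klf7 (chr1:64121390-64121639) lie wholly inside these minus-strand genes. Their annotated 5′ ends are at 100284679 and 64122282, so both windows precede an internal start. The windows of Klf4 (chr4:55532476-55532725, minus strand), of Klf2 (chr8:72318812-72319061, plus strand), of Klf6 (chr13:5861239-5861488, plus strand) and of Klf13 (chr7:63938916-63939165, minus strand) are shown because Klf4 is the target, Klf2 and Klf6 are activating members, and Klf13 is 1 of the 2 members with an unadjusted p under 0.05. Capitals mark the GC box GGGCGG, the CACCC element bound by KLF proteins, the E-box CACGTG and the MEF2 site. Each was searched on both strands, and neighbouring matches can overlap, as a GC box and the CACCC element do in Klf13.
Klf4: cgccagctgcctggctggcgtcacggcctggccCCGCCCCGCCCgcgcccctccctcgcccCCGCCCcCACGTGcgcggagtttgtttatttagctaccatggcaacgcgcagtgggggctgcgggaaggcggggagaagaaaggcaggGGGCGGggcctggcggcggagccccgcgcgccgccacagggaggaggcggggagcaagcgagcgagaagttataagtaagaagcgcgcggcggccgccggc
Klf2: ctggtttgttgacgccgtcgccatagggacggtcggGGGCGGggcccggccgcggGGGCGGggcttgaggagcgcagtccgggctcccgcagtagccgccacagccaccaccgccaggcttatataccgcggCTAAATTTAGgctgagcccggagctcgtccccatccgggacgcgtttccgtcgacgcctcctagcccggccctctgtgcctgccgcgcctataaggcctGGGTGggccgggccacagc
Klf6: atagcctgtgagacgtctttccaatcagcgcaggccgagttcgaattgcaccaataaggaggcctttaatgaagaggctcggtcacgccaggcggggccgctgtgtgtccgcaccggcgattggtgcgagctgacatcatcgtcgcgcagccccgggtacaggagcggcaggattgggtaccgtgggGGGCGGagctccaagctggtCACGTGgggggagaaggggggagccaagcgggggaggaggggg
Klf13: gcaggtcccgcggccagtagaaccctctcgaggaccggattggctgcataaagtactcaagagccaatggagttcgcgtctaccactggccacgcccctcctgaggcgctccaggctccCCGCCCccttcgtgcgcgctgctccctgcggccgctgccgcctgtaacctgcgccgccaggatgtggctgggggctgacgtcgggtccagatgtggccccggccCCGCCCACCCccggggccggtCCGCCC
The GC box occurred in 7 of the 8 Klf windows, against 32.7% of 32851 RefSeq windows of the same length, and CACCC in 5 of 8 against 52% of all. The window of Klf4 held 4 GC boxes and an E-box and no CACCC. The E-box was found in the windows of Klf4, Klf6 and Klf11, against 6.02% of all windows. The MEF2 site was found in Klf2 alone among the 8, at -118 to -109 from the start, against 2.92% of all windows; MEF2 factors are known to induce Klf2 downstream of the kinase ERK5. The Klf windows had a GC content of 48% (Klf12, at its internal start) to 78.4% (Klf3), and the median of all windows was 52.4%. Neither TGACGTCA, the element of cAMP-responsive factors, nor the CArG box of serum response factor was found in any of the 8, against 1.55% and 1.47% of all windows. The shorter cAMP element TGACG, which the full element contains, was found in 4 of the 8, Klf2, Klf4, Klf12 and Klf13, against 17.8% of all windows. The CCAAT box was found in 3 of 8 (Klf6, Klf11 and Klf13) against 33.8% of all. The TATAAA box was found in the internal window of Klf12 alone, against 12.4% of all. These matches describe the letters of the windows, and no binding was measured.

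Levels of the 10 genes were compared per length of exon. In the control libraries, Klf11 was the highest at 1533 ± 159 normalized counts per kilobase (SD, n = 3), followed by Klf2 at 1188 ± 335, Klf13 at 1156 ± 94, Klf5 at 1133 ± 107, Klf6 at 1057 ± 58.9, Klf10 at 1016 ± 82.3, Klf4 at 879 ± 194 and Klf7 at 787 ± 59.8. Each of these 8 overlapped in range with its neighbour in the order. Klf3 at 467 ± 3.46 and Klf12 at 381 ± 30.6 lay below and apart from the rest and from each other. The order depends on the length used: with the longest transcript in place of all exons, Klf5 came first at 1759 ± 165, and Klf3, whose annotated exons sum to 11243 bases against 5221 in its longest transcript, stood at 1005 ± 7.45. Among the genes tested, the 10 lay between the 54.2 and the 85.4 percentile of the level per kilobase. Klf4 was thus neither the most nor the least abundant family transcript of the islet, and the 10 genes together summed to 9598 ± 1064 normalized counts per kilobase in control and 9247 ± 490 in knockout libraries (SD, n = 3), with overlapping ranges.

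**Figure D2:**
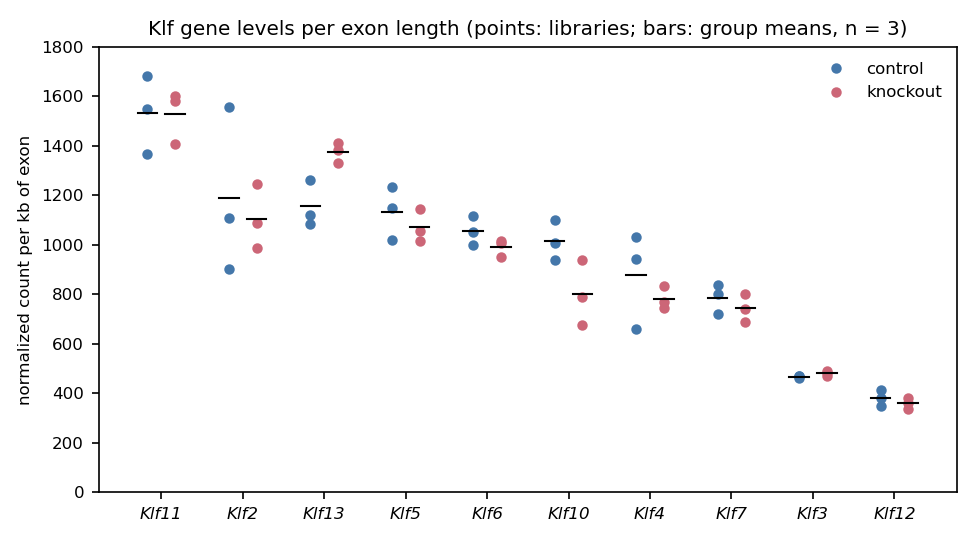
Normalized count per kilobase of annotated exon (vertical axis) for the 10 Klf genes, ordered by the control mean; points are libraries and short bars the means of 3. Klf11 is at the left with 1533 in controls, and Klf3 and Klf12 lie apart at the right.

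As shares of that sum, Klf4 made up 9.68%, 9.86% and 7.73% in control replicates 1 to 3 and 8.27%, 8.57% and 8.54% in knockout replicates 1 to 3. The share of Klf13 was 11.3% to 13.1% in control and 14.2% to 15.2% in knockout libraries, and that of Klf10 10.3% to 11% and 7.76% to 9.65%. The ranges of Klf13 and Klf10 did not overlap between the groups, while that of Klf4 did. That of Klf3 also overlapped here, at 4.39% to 5.42% in control and 4.85% to 5.54% in knockout libraries. The shares are the same counts divided by their sum, so they are not separate evidence. Klf11 kept the highest share in each library, at 15.8% to 17.2%.

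The activating members are described next, beginning with Klf2, a flow-induced factor of endothelial cells, where Klf4 is also active. Klf2 (ENSMUSG00000055148, chromosome 8, 72319033 to 72321656) was at 2874, 2046 and 1664 normalized counts in the control and 2008, 2300 and 1823 in the knockout libraries. Control replicate 1 was the highest and control replicate 3 the lowest library, and the controls enclosed all knockout libraries. The control coefficient of variation of 28.2% was the widest of the 10 genes and 11.8% was found in the knockouts, against about 3.06% from counting. The log2 fold change was -0.10 ± 0.17 (SE, DESeq2 adjusted p = 0.924), and it changed sign, to 0.14, without control replicate 1. Of 10 endothelial markers 0 passed, and their summed level was 98634 to 114290 in control and 106363 to 121771 in knockout libraries. Of 5 tested genes known as endothelial targets of KLF2 and KLF4, 1 rose, the water channel gene Aqp1, from 2293 ± 194 to 2863 ± 97 normalized counts (SD, n = 3 each; DESeq2 adjusted p = 0.0324, edgeR 0.234). DESeq2 called 2.19% of all genes tested. Which islet cells this Aqp1 RNA came from was not measured.

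Klf5, a factor of proliferating epithelia (ENSMUSG00000005148, chromosome 14, 99298691 to 99315036), was at 6409, 5968 and 5308 normalized counts in the control and 5494, 5962 and 5274 in the knockout libraries. Klf6, an injury-responsive factor of many tissues (ENSMUSG00000000078, chromosome 13, 5861482 to 5870394), was at 4908, 4622 and 4392 in the control and 4426, 4462 and 4183 in the knockout libraries. Klf7, known for its role in neurons (ENSMUSG00000025959, chromosome 1, 64029447 to 64122282), was at 6517, 6812 and 5861 in the control and 5609, 6037 and 6524 in the knockout libraries. All 3 overlapped between the groups, with log2 fold changes of -0.08, -0.09 and -0.08 and DESeq2 adjusted p-values of 0.86, 0.771 and 0.856. Their 95% intervals ran at most from -16.7% to 7.46%. Exons of Klf7 overlap those of 2 genes on the opposite strand, by 3196 and 4 bases, and the strand setting of the counting is not given in the sources used here, so its count is uncertain.

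Klf3 and Klf12 recruit the corepressor CtBP, and were the least abundant of the 10 per kilobase of exon. Klf3 (ENSMUSG00000029178, chromosome 5, 64803388 to 64832901) was at 5269, 5271 and 5202 normalized counts in the control and 5502, 5305 and 5446 in the knockout libraries. Every knockout library lay above every control, by a small step: the log2 fold change was 0.05 ± 0.07 (SE, DESeq2 adjusted p = 0.904), and its 95% interval ran from -5.58% to 12.9%. Its control coefficient of variation of 0.742% was below the 1.93% that counting gives if each fragment adds 2 counts. Its count is uncertain too, since 404 exonic bases are shared with an opposite-strand gene. Klf12 (ENSMUSG00000072294, chromosome 14, 99870632 to 100284679) was at 2878, 2655 and 2451 in the control and 2673, 2528 and 2341 in the knockout libraries. Its groups overlapped, and the difference was -0.08 ± 0.10 on the log2 scale (SE, DESeq2 adjusted p = 0.862).

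The members that recruit the SIN3A corepressor held both of the larger differences and the smallest. Klf10, an early gene of the TGF-beta response (ENSMUSG00000037465, chromosome 15, 38291463 to 38300706), was at 4608, 4212 and 3923 normalized counts in the control and 3296, 3919 and 2834 in the knockout libraries. The groups did not overlap, but the lowest control and the highest knockout library were nearly equal. The log2 fold change was -0.34 ± 0.12 (SE), with a 95% interval from -33.2% to -6.94%, an unadjusted p of 0.00494 and a DESeq2 adjusted p of 0.125 (edgeR 0.374). In DESeq2 it passed with the replicate number as a block (-0.35, adjusted p = 0.0421), without control replicate 3 (-0.40, 0.0443) and without knockout replicate 2 (-0.47, 0.0066). Those fits called 2.47%, 6.28% and 2.25% of all genes.

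Klf13, a factor first studied in lymphocytes (ENSMUSG00000052040, chromosome 7, 63886351 to 63938915), was at 9513, 8178 and 8437 normalized counts in the control and 10630, 10424 and 10035 in the knockout libraries. The groups did not overlap, and the knockout libraries varied by 2.92% against 8.13% in the controls. The log2 fold change was 0.25 ± 0.08 (SE), with a 95% interval from 6.58% to 32.9%, an unadjusted p of 0.00198 and a DESeq2 adjusted p of 0.072 (edgeR 0.304). It passed without control replicate 1, the control with the highest value, at 0.32 with a DESeq2 adjusted p of 0.000516, where 2.49% of all genes were called. Klf11, the relative of Klf10 that also responds to TGF-beta and has been linked to insulin gene control (ENSMUSG00000020653, chromosome 12, 24651274 to 24662789), was at 7307, 6725 and 5930 in the control and 6947, 6859 and 6108 in the knockout libraries. Its groups overlapped, and the log2 fold change was -0.003 ± 0.098 (SE, DESeq2 adjusted p = 0.996), with a 95% interval from -12.7% to 13.9%.

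**Figure D3:**
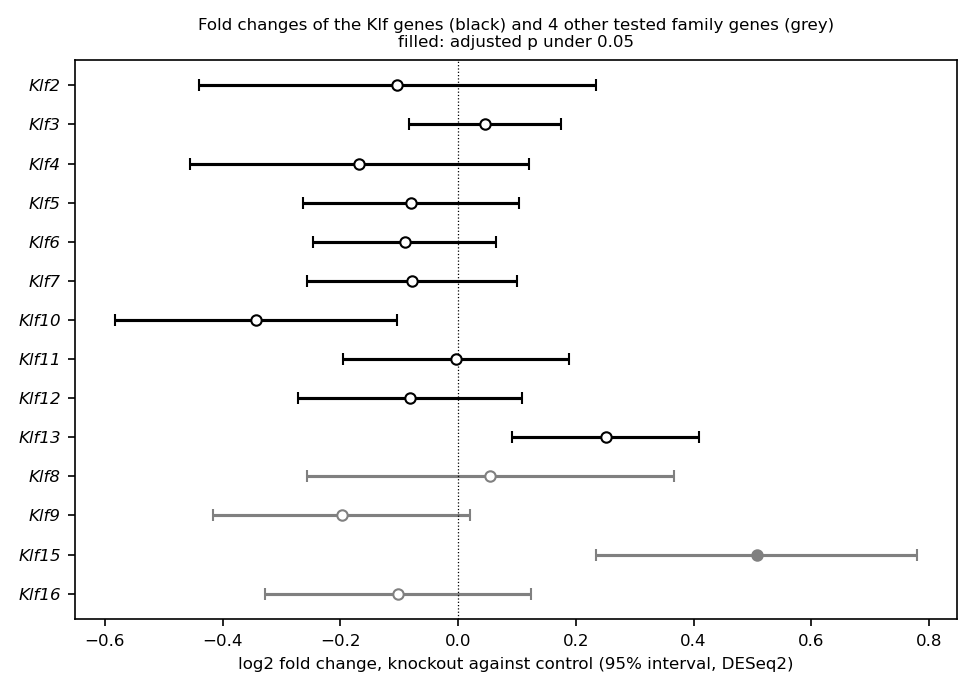
Log2 fold change of knockout against control (horizontal axis) with its 95% interval from DESeq2 for the 10 Klf genes (black) and 4 other family genes with an adjusted p (grey); filled points passed. Klf10 and Klf13 have intervals that leave out 0 before adjustment, and Klf15 is the filled point at 0.51.

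Read as limits on a rise in whole islets, the upper ends of the 95% intervals were 32.9% for Klf13, 17.7% for Klf2, 13.9% for Klf11, 12.9% for Klf3, 7.82% for Klf12, 7.46% for Klf5, 7.18% for Klf7 and 4.49% for Klf6. For Klf10 the whole interval lay below 0. The limits depend on the libraries: with each left out in turn, the upper end ran from 2.91% to 34.4% for Klf2, from 5.98% to 20.4% for Klf11, from 2.93% to 13.1% for Klf12, from 0.448% to 12.9% for Klf5, from 1.72% to 13% for Klf7 and from 0.598% to 7.96% for Klf6. All 6 were lowest without control replicate 3, while the highest came without control replicate 1 (Klf2, Klf5 and Klf11), knockout replicate 1 (Klf7) or knockout replicate 3 (Klf6 and Klf12). The upper end ran from 29.4% to 37.6% for Klf13, from 11.4% to 14.9% for Klf3 and from -15.2% to 0.192% for Klf10, which reached past 0 without control replicate 1. These limits are for the sum of all islet cells, and a change within alpha cells alone was not measured. By group, 8 of the 10 log2 fold changes were below 0 and 2 above, with a median of -0.08, beside a median of -0.01 over all genes tested. Groups were free of overlap for 3 of the 10, against 17.3% of all genes tested: Klf3 and Klf13 higher in the knockouts, where 9.06% of all genes were, and Klf10 lower, where 8.23% were. This depends on the scaling, since relative to library totals only Klf13 stayed free of overlap. Klf10 had 3698 of 101277200 raw counts in control replicate 3 and 3800 of 102970676 in knockout replicate 2. Klf3 had 5312 of 102369726 in control replicate 1 and 5144 of 102970676 in knockout replicate 2.

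The libraries themselves ordered the family. Control replicate 3 was the lowest control for 9 of the 10 genes, against 36.2% of all genes tested, and control replicate 1 the highest for 8 of 10, against 30.6%. Among the knockouts, replicate 3 was the lowest for 8 of 10, against 36.1%. These member counts were the same under TMM scaling, and under scaling to library totals control replicate 1 was the highest for 9 of 10, against 43.8% of all genes. The mean of 15 immediate early genes, which like several KLFs are induced within minutes of stimulation or tissue handling, was 10.97, 10.88 and 10.38 on the log2 scale in control replicates 1 to 3 and 10.91, 11.07 and 10.7 in knockout replicates 1 to 3, so it was also lowest in control replicate 3. Apart from its correlation with Klf4, given below, the relation of this mean to the Klf values was not tested.

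**Figure D4:**
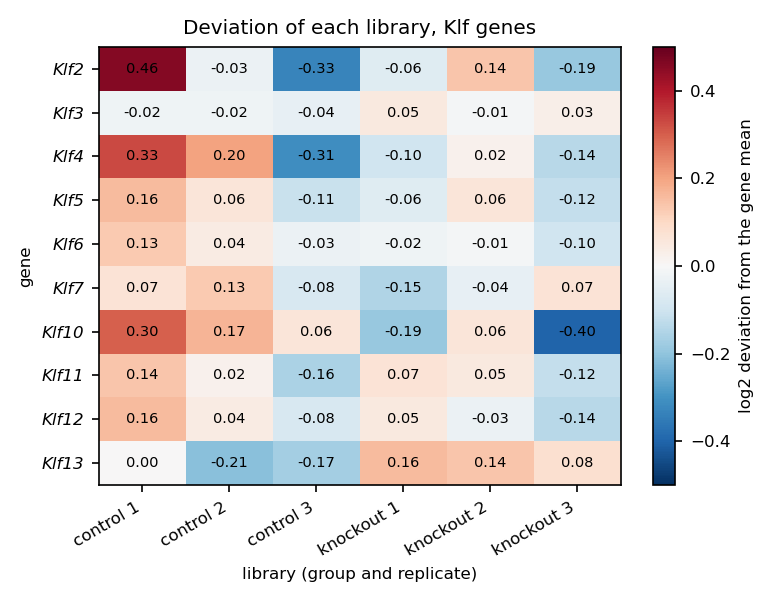
Log2 deviation of each library (columns) from the mean of each Klf gene over the 6 libraries (rows), as numbers and colour. Control replicate 1 is high and control replicate 3 low for most genes, with Klf2 spanning 0.46 to -0.33; Klf3 stays within 0.05 of its mean, and Klf13 is low in control replicates 2 and 3 and high in the knockouts.

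Across the 6 libraries, the log2 level of Klf4 was set against the 9 other members and the immediate early mean, 10 relations in all, with exact two-sided permutation tests. Pearson's r with Klf4 was 0.93 for Klf5 (exact p = 0.00972, adjusted 0.0972; Spearman's rho 0.94, exact p = 0.0167, adjusted 0.0557). It was 0.87 for Klf2 (exact p = 0.0236, adjusted 0.106; rho 0.94, exact p = 0.0167, adjusted 0.0557) and 0.84 for Klf6 (exact p = 0.0319, adjusted 0.106; rho 0.94, exact p = 0.0167, adjusted 0.0557). For Klf11, Klf12, Klf7 and Klf10 r was 0.82, 0.79, 0.63 and 0.62 (exact p = 0.0514, 0.0625, 0.186 and 0.182). None of the 10 relations passed after adjustment. Without the 2 libraries farthest from the median of Klf4, control replicates 1 and 3, r was 0.92 for Klf10, 0.88 for Klf6, 0.87 for Klf5, 0.54 for Klf7 and Klf12, 0.46 for Klf2 and 0.39 for Klf11. The 4 libraries left are control replicate 2 and the 3 knockouts, which lie close together in Klf4, so these values mostly set that control against the knockouts and show neither that a relation holds nor that it fails. For Klf3 r was -0.18 (exact p = 0.721) and for Klf13 -0.07 (exact p = 0.887), and -0.88 and -0.84 over those 4 libraries. With the immediate early mean r was 0.73 (exact p = 0.106; rho 0.71, exact p = 0.136) and 0.36 over those 4.

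By the same measure over the 6 libraries, the genes most like Klf4 among 15810 others with a mean of at least 50 normalized counts were D10Wsu102e (r = 0.997), Zfp280d (0.995), Cpsf6 (0.995), which encodes a subunit of the machinery that forms messenger RNA 3′ ends, the deubiquitinase gene Usp3 (0.993) and the cyclin L1 gene Ccnl1 (0.991). Klf5 ranked 125 and Klf2 418 on this list. With 6 libraries and this many genes, these are the ends of a ranking and carry no test.

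The rest of the family and its partners were counted from gene lists. Of 7 other Klf genes, Klf17 had no count in any library, Klf1 and Klf14 were too low for an adjusted p, and 4 were tested. Klf15, a factor induced by glucocorticoids and fasting, rose from 1034, 933 and 1179 normalized counts in the control to 1636, 1586 and 1247 in the knockout libraries, with every knockout library above every control. Its log2 fold change was 0.51 ± 0.14 (SE, DESeq2 adjusted p = 0.0177, edgeR 0.261), and it passed in 6 of 12 alternatives, not in edgeR, with the replicate block (0.0516) or without control replicate 1 or 2 or knockout replicate 1 or 2 (0.0988 to 0.315). Beside it, 5 of 9 glucocorticoid response genes rose and 0 fell, among them Zbtb16 (3.06 ± 0.21) and Fkbp5 (0.76 ± 0.13, log2 fold change ± SE; DESeq2 adjusted p = 2.07e-45 and 1.42e-06). In edgeR 2 of the 9 passed, Zbtb16 (adjusted p = 0.00142) and the metallothionein gene Mt2 (0.0496), while Fkbp5 did not (0.114). Klf9, another glucocorticoid-induced member and the family's most abundant transcript here at 3800 ± 313 normalized counts per kilobase in controls, differed by -0.20 ± 0.11 on the log2 scale (SE, DESeq2 adjusted p = 0.517).

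None of 6 tested Sp genes, the sister family that shares the GC box, passed, with a median log2 fold change of -0.05. The same held for 10 corepressor and coactivator genes that KLF proteins recruit (Ctbp1, Sin3a, Ep300 and others), with a median of -0.001, and for 7 genes of the ERK5 and MEF2 route that induces Klf2 and Klf4 and of the ubiquitin ligases that degrade KLF proteins, with a median of 0.02. Of 11 TGF-beta pathway genes, upstream of Klf10 and Klf11, none passed, with a median of 0.03. In edgeR none of these genes passed either. Of 15 immediate early genes 1 rose, Fosb, from 2847 ± 190 to 4057 ± 669 normalized counts (SD, n = 3 each; DESeq2 adjusted p = 0.00286, edgeR 0.187), and 12 of the 15 log2 fold changes were above 0.

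Markers of some other cells moved with the genotype beside Klf10, Klf13 and Klf15. The summed level of 8 acinar genes was 564885 to 1135343 normalized counts in control and 1432521 to 2029334 in knockout libraries, with 0 of 8 passed and all 8 without overlap. That of 10 mesenchymal genes was 85494 to 98814 and 127400 to 132329, with 5 of 10 higher in DESeq2 and 3 in edgeR. Of 9 macrophage genes 2 rose in DESeq2 and 0 in edgeR. Their summed level overlapped between the groups, at 11127 to 12173 in control and 10977 to 13019 in knockout libraries. Of 6 duct genes 2 rose in DESeq2 and 0 in edgeR. Their summed level was 25474 to 28903 in control and 31084 to 35765 in knockout libraries. The sum of 6 hepatocyte genes was 346 to 431 in control and 353 to 75330 in knockout libraries, with the highest in knockout replicate 1. Of 5 tested, 4 rose in DESeq2 and 0 in edgeR. Those 4 (Serpina3k, Pzp, Plg and Ahsg) were also above the controls in knockout replicate 2, where Ahsg was at 324 normalized counts against 2 to 16 in the controls. Without knockout replicate 1 Klf10 was at -0.33, Klf13 at 0.23 and Klf15 at 0.43 on the log2 scale, and without knockout replicate 2 they were at -0.47, 0.25 and 0.46. No fit left out both libraries. Of 10 beta-cell genes 1 fell in DESeq2 and 0 in edgeR, and 0 of 5 delta-cell and 0 of 4 Schwann-cell genes passed. The summed level of 6 lymphocyte genes was 1638 to 1751 in control and 1406 to 1443 in knockout libraries, lower without overlap, with 0 of 2 tested genes passed. Of the hepatocyte genes, Serpina3k was at 0 in every control library, and no listed marker was at 0 in all 6 libraries. The part of these cells in the Klf values was not tested.

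No member passed in the DESeq2 fits with TMM factors, without a filter on low counts, with at least 10 counts in at least 3 samples, with halved counts, or without control replicate 2 or knockout replicate 1 or 3. These fits called 2.29%, 2.17%, 2.28%, 1.82%, 1.56%, 0.88% and 1.49% of all genes.

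**Figure D5:**
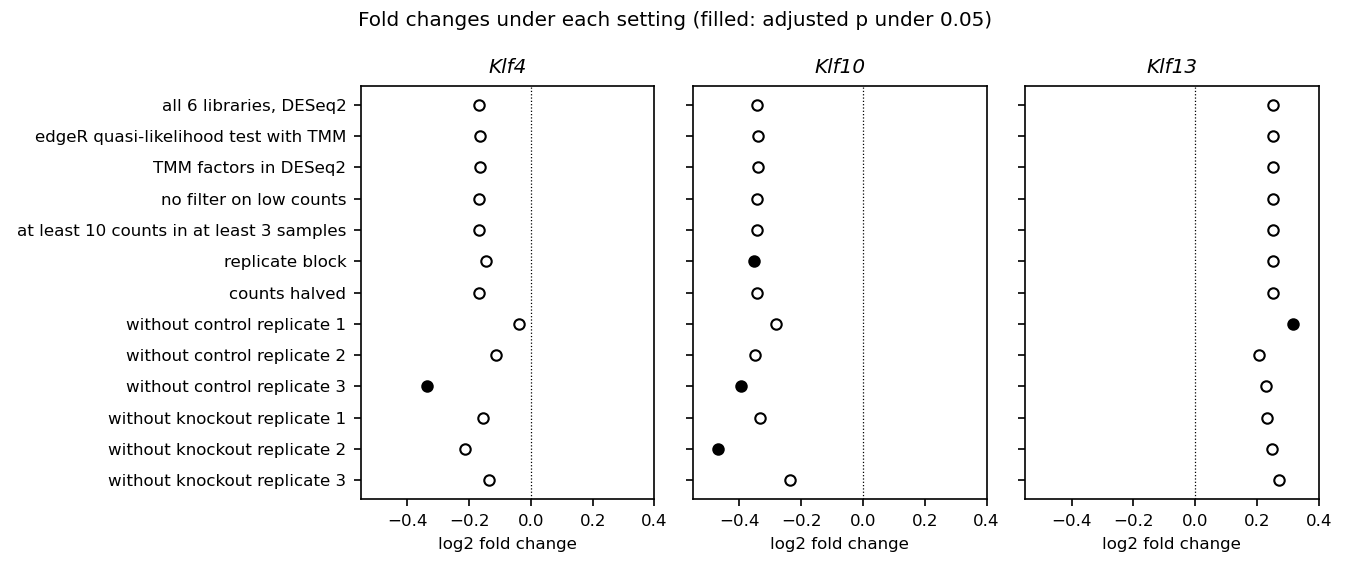
Log2 fold change of Klf4, Klf10 and Klf13 (horizontal axes) under each setting (rows); filled points have an adjusted p under 0.05. Direction is the same in each setting shown, while the filled points are 1 for Klf4, 3 for Klf10 and 1 for Klf13.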

How the data were processed

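Islet polyadenylated RNA from 6 libraries was analysed from the authors' deposited table of raw counts per gene. Reads were trimmed with cutadapt, per the file's name; FastQC, STAR, featureCounts, DESeq2 and mm10 are listed in the submitters' processing notes, and strand setting and annotation are not given in the sources used here. All 55536 identifiers and symbols match GENCODE M21 (GRCm38). Of counts from 1 to 20, 84.3% to 87.3% were even in each library, as when both mates of a pair are counted, so counting error was computed for fragments (counts divided by 2).

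DESeq2 1.42.0 in R 4.3.3 compared 3 knockout with 3 control libraries with no covariate, on genes with at least 10 counts in total, with median-of-ratios size factors, the Wald test and Benjamini-Hochberg adjustment over all genes at 0.05. Correlations used log2(normalized count + 1). edgeR 4.0.16 (quasi-likelihood, TMM), TMM factors, other filters, the replicate block and each library left out were alternatives; halved counts and the alternatives for Klf15 were added after the data were seen. Fits were tested on simulated data. All members are named. From each list, the text names genes past the threshold, from the 4 with the lowest adjusted p; genes like Klf4 are the 5 with the highest Pearson correlation at a mean of at least 50. Klf9, Serpina3k, the sex-linked genes and the ordering of libraries were chosen after their values were seen. The members and lists were chosen with earlier results of these data known. Replicate pairs differed by 40 to 120 times their degrees of freedom in chi-square, so they were not copies of a single library. All were treated as separate samples, though this does not show that they came from different mice. In all, 0 columns were unused.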

Additional observations from a re-analysis of the deposited data

How the results depend on the processing

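With all 6 libraries, 0 Klf members passed in DESeq2, edgeR, with TMM factors, with other filters and with halved counts. With the replicate block 1 passed (Klf10), and 0 to 2 passed when a library was left out. The number of genes past the threshold was 389 (272 higher, 117 lower) and 29 in edgeR (24 and 5), where the share of higher genes differed; it ran from 153 without knockout replicate 1 to 952 without control replicate 3, and from 323 to 407 in the other DESeq2 fits that kept all 6 libraries, the replicate block (405) included. Klf4, at -0.17, was -0.15 with the replicate block and -0.337 to -0.038 when a library was left out, past the threshold without control replicate 3 only. Of 108 results of the other 9 members, 100 kept direction and side, 4 became significant (Klf10 in 3, Klf13 in 1) and 4 changed sign: Klf2 ran from -0.27 to 0.14 and Klf11 from -0.079 to 0.068 when libraries were left out. What causes these changes was not tested. Replicate numbers did not pair the libraries: correlations of same-numbered deviations were -0.048, -0.059 and 0.01 over 15811 genes, and 1 of 6 libraries correlated best with its own number. Depth gives about 1.44% to 3.06% counting error for the members. For members other than Klf3 the spread between libraries was wider and limits precision. For Klf3 the coefficient of variation was 0.742% in control and 1.88% in knockout libraries, below its counting error of 1.93%.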
